A study of Daphnia magna with 230 samples.

Results

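Copper-zinc superoxide dismutase transcripts were followed across all exposures of *Daphnia magna*, a small freshwater crustacean used in toxicity testing. The set holds 4 transcripts, Dapma7bEVm009708t1, Dapma7bEVm012028t1, Dapma7bEVm002960t1 and Dapma7bEVm024402t1, of 29127 in the table of estimated counts. All 4 were chosen by name because they were lower in wetland water spiked with pyriproxyfen than in unspiked wetland water, so values from wetland libraries are given as a description without a test. Laboratory water and stormwater libraries did not enter that comparison, but earlier results of these data were known when the members were chosen.

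Superoxide dismutases turn superoxide, a reactive by-product of oxygen metabolism, into hydrogen peroxide and oxygen, and the copper-zinc enzymes do so with a copper and a zinc ion. In *D. magna* a superoxide dismutase-like domain is also known in a chain of vitellogenin, the yolk protein precursor that maturing females load into eggs. Pyriproxyfen is an insecticide that mimics juvenile hormone, and juvenile hormone analogs are known to act on vitellogenin transcripts and on male production in *Daphnia*. The gene names are those of the study's annotation.

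Whole-body RNA was measured after 96 h of exposure that began with animals less than a day old, and each library was a pool of 5 animals. The wetland experiment had 69 libraries: laboratory water unspiked, at a lower dose (labelled Lab Water-119 ng/L) or at a higher dose (labelled Lab Water-239 ng/L) of pyriproxyfen, and water of 6 wetlands (Breen, Douglas, Kandiyohi, Kerk, LeSouer and Woodland) unspiked or at the lower dose, where unspiked wetland water held the ethanol vehicle and unspiked laboratory water did not. Pyriproxyfen was dissolved in ethanol, so dose and vehicle cannot be told apart in laboratory water. The stormwater experiment had 160 libraries without pyriproxyfen: stormwater from 9 sampling points in spring, early summer and late summer, and 21 libraries of SCSU laboratory controls carrying the same season labels. Sampling points were the inflow and outfall of the filters 37ST, TBNS1 and TBNS2, which pass runoff through iron-enhanced sand, and the pipes Cedar-Lake, Crystal-Lake and SAP. Pools of a group shared 1 water. Among laboratory water and control libraries, p-values thus measure the spread between pools, which may be technical. Stormwater comparisons took libraries of 9 sampling points as separate, without a term for water. Their p-values mix the spread between waters with that between pools, and libraries of 1 water are not independent. SAP and the control each had a second late summer set of 5 libraries, and 1 further library had conflicting labels and entered no group. Library totals ran from 5040650 to 15037010 counts. In bulk RNA, fewer cells that carry a transcript and less of it per cell cannot be told apart. Vitellogenin, a marker of maturing females, was detected in every library, at 3.57 to 1162 CPM (counts scaled to an equal library total).

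The 4 transcripts took from 0.00112% to 14.1% of all counts in a library, with a median of 2.72% over 229 libraries. The summed share was under 0.1% in 42 libraries and 5% or more in 71. For Dapma7bEVm009708t1 the range was 3.23 to 73515 CPM, for Dapma7bEVm012028t1 2.33 to 52794 CPM, for Dapma7bEVm002960t1 1.92 to 16701 CPM and for Dapma7bEVm024402t1 0 to 8154 CPM. Transcript lengths were not used here, so these levels are not compared between members.

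Pools from the same water could lie far apart. The highest pool exceeded the lowest by more than 100-fold in summed share in 18 of 47 groups, and by more than 1000-fold in 11. Late summer controls ranged from 0.00152% to 10.7%. In filter outfall TBNS2 the 5 spring pools lay between 7.02% and 10.9%, while the 5 late summer pools were at 0.00136%, 0.00152%, 2.00%, 3.08% and 3.68%. Within groups of the stormwater experiment the pooled SD of log2(CPM + 1) was 3.46 for Dapma7bEVm009708t1, 3.53 for Dapma7bEVm012028t1, 3.72 for Dapma7bEVm002960t1 and 3.18 for Dapma7bEVm024402t1. The median SD of 1585 transcripts with a mean of at least 100 CPM was 0.53, and 97.1% to 99.4% of these had a lower SD than the members.

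In laboratory water the fitted log2 difference at the lower dose of pyriproxyfen was negative for each member, and 1 of the 4 passed the test. The summed share in the 5 unspiked libraries was 13.7%, 4.85%, 2.31%, 3.09% and 7.22%, in replicate order. At the lower dose it was 2.29%, 3.63%, 0.999%, 2.33% and 1.68%. At the higher dose it was 1.94%, 1.43%, 5.69%, 0.567% and 0.236%. Of the libraries at the lower dose, 3 of 5 lay below every unspiked one, and of those at the higher dose, 4 of 5.

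Dapma7bEVm024402t1 was at 6844, 3167, 1806, 2276 and 4340 CPM in unspiked laboratory water, and at 1589, 1761, 673, 1684 and 903 CPM at the lower dose, so the groups did not overlap. It fell by 1.58 on the log2 scale (SE 0.41, edgeR quasi-likelihood test, Benjamini-Hochberg adjusted p = 0.0311 over 24858 transcripts). Of all transcripts, 6.21% were called lower and 3.86% higher in this comparison. How many of them did not overlap between the groups was not counted. Dapma7bEVm009708t1 was at 64689, 27330, 13852, 17921 and 34621 CPM without pyriproxyfen and at 12523, 18199, 5711, 12640 and 9343 CPM at the lower dose. In 4 of 5 spiked libraries it lay below every unspiked one, with a log2 difference of -1.54 (SE 0.45, edgeR adjusted p = 0.0576). The log2 difference of Dapma7bEVm012028t1 was -1.85 (SE 0.60, edgeR adjusted p = 0.0806), and that of Dapma7bEVm002960t1 was -1.22 (SE 0.71, edgeR adjusted p = 0.347). For Dapma7bEVm012028t1, 3 of 5 spiked libraries lay below every unspiked one. For Dapma7bEVm002960t1, 0 of 5 did, and 1 unspiked library lay below every spiked one. The call for Dapma7bEVm024402t1 was lost when unspiked replicate 1 or 5, or lower-dose replicate 3, 4 or 5, was left out, with edgeR adjusted p of 0.0567, 0.0661, 0.0674, 0.0552 and 0.0844. By DESeq2, 3 of 4 members passed, as did 14.6% of all transcripts.

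**Figure D1:**
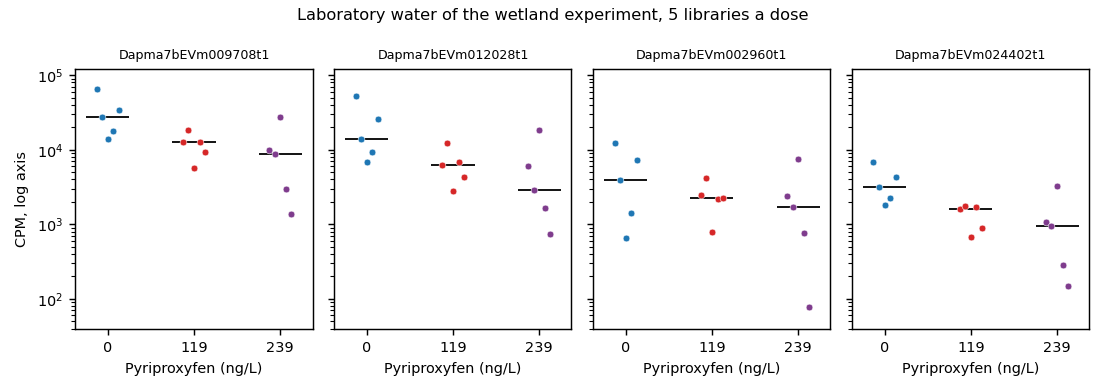
CPM of each member (log axis) in laboratory water by pyriproxyfen dose (ng/L). Points are the 5 libraries of a dose and lines their medians. For Dapma7bEVm024402t1 all 5 libraries at the lower dose lie below all 5 without, and at the higher dose the libraries spread from 147.8 to 3289 CPM.

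At the higher dose 0 of 4 members passed against unspiked water by edgeR, 3 of 4 had an unadjusted p under 0.05, and DESeq2 called 0, while 0.783% of all transcripts were called lower by edgeR and 11.9% had an unadjusted p under 0.05. The log2 differences were -1.75 (SE 0.74), -1.99 (SE 0.87), -1.15 (SE 1.02) and -1.79 (SE 0.74) for Dapma7bEVm009708t1, Dapma7bEVm012028t1, Dapma7bEVm002960t1 and Dapma7bEVm024402t1, in that order. With 1 library left out these ran from -2.47 to -1.28, from -2.95 to -1.31, from -2.04 to -0.47 and from -2.60 to -1.41. Both dose comparisons used the same unspiked libraries. Higher minus lower dose gave -0.23 to 0.05 on the log2 scale, with 0 of 4 members passing by edgeR or DESeq2 and 0 at an unadjusted p under 0.05. Over all transcripts edgeR called 0% here, with 1725 at an unadjusted p under 0.05, and DESeq2 called under 1%. The 95% interval for Dapma7bEVm009708t1 was -1.54 to 1.09.

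In wetland water the spiked libraries were the lower ones, which is the pattern that chose the members. The summed share in 30 unspiked libraries ranged from 0.0045% to 11.6%, with a median of 4.44%. In 24 spiked libraries it ranged from 0.00172% to 1.66%, with a median of 0.0588%. Of the 30 unspiked libraries, 25 lay above every spiked one, and 5 of 24 spiked libraries lay below every unspiked one. The fitted log2 differences were -3.37 (SE 0.69), -3.71 (SE 0.70), -4.10 (SE 0.74) and -3.49 (SE 0.63) for Dapma7bEVm009708t1, Dapma7bEVm012028t1, Dapma7bEVm002960t1 and Dapma7bEVm024402t1. All 4 were below -2, as were 0.562% of 26166 transcripts.

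The observed size of this difference was not the same in each wetland, and wetlands were not tested against each other. In Douglas water the unspiked pools held 11.6%, 10.4%, 3.68%, 8.58% and 0.908% of counts and the 3 spiked pools 0.00240%, 0.00303% and 0.00528%. In Breen water the unspiked pools held 3.31% to 9.42% and the spiked pools 0.0197%, 1.25% and 0.00921%. In Kandiyohi water the unspiked pools held 2.77% to 6.06% and the 4 spiked pools 0.0527%, 0.00284%, 1.32% and 0.436%. In these 3 waters the summed shares did not overlap between doses.

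In LeSouer water the unspiked pools held 3.68% to 11.6% and the spiked pools 0.0155%, 0.0190%, 1.63%, 0.0650% and 0.269%. In Kerk water the unspiked pools held 1.22% to 6.24% and the 4 spiked pools 0.834%, 1.05%, 0.0139% and 0.0918%. The summed shares did not overlap between doses in either water. In Woodland water the unspiked pools held 1.90%, 0.0045%, 7.71%, 0.278% and 1.79% and the spiked pools 0.00172%, 0.00282%, 1.66%, 1.18% and 0.902%, so the groups overlapped. Taken singly, Dapma7bEVm009708t1 and Dapma7bEVm024402t1 did not overlap in 5 of 6 wetlands, Dapma7bEVm012028t1 in 4 and Dapma7bEVm002960t1 in 3. How many of all transcripts did not overlap in the same way was not counted. On the log2(CPM + 1) scale the mean difference in the sum of the members ran from -10.52 in Douglas water to -2.36 in Woodland water.

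**Figure D2:**
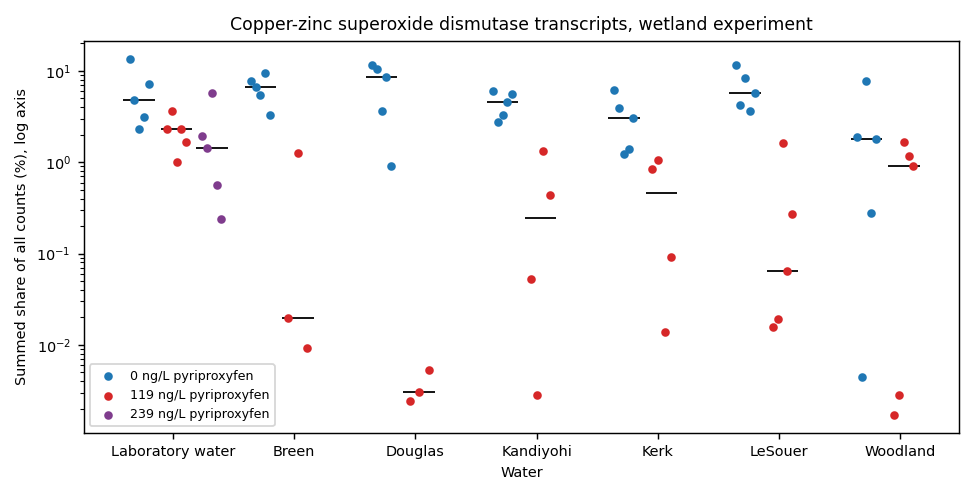
Summed share of all counts (%, log axis) of the 4 transcripts in each water of the wetland experiment, by dose. Points are libraries, lines medians. Unspiked and spiked pools do not overlap in 5 of 6 wetlands, and overlap in Woodland water.

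Without pyriproxyfen, wetland minus laboratory water gave log2 differences of -0.40 to -0.10 (SE 0.62 to 0.90), and without laboratory replicate 1 their median changed from -0.33 to 0.19. At the lower dose, wetland libraries were lower than laboratory ones by log2 differences of -2.95 to -2.17, and 18 of 24 wetland libraries lay below all 5 laboratory libraries in summed share. The dose effect in wetland water minus that in laboratory water was -1.84 (SE 1.46) for Dapma7bEVm009708t1 and -2.89 (SE 1.59) for Dapma7bEVm002960t1.

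In early summer all 4 members were higher in stormwater than in laboratory controls. The 44 stormwater libraries had summed shares of 0.00501% to 10.9%, with a median of 3.42%, while the 5 controls were at 0.119%, 0.0625%, 0.00444%, 0.00341% and 0.00216%. Of the stormwater libraries, 40 of 44 lay above every control. Dapma7bEVm009708t1 was at 509, 165, 24.7, 15.2 and 12.1 CPM in the controls and was higher in stormwater by 7.38 on the log2 scale (SE 1.42, edgeR adjusted p = 0.000316). The log2 difference was 7.78 (SE 1.54) for Dapma7bEVm012028t1, 5.33 (SE 1.24) for Dapma7bEVm002960t1 and 7.49 (SE 1.49) for Dapma7bEVm024402t1, with edgeR adjusted p of 0.000390, 0.00141 and 0.000394. Of all transcripts, 14.2% were called higher and 13.2% lower here.

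These 4 calls held with each early summer control left out, with log2 differences of 5.01 to 9.14 and edgeR adjusted p of 0.000324 to 0.00956. Libraries of 1 water counted as separate here, and no fit on counts summed per water sample was made. These 5 controls stand for the whole season, so an effect of stormwater and of that set of controls cannot be told apart. As a description without a test, vitellogenin was also higher in stormwater, by 3.64 on the log2 scale (SE 0.90), and was at 5.41 to 43.8 CPM in these controls.

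**Figure D3:**
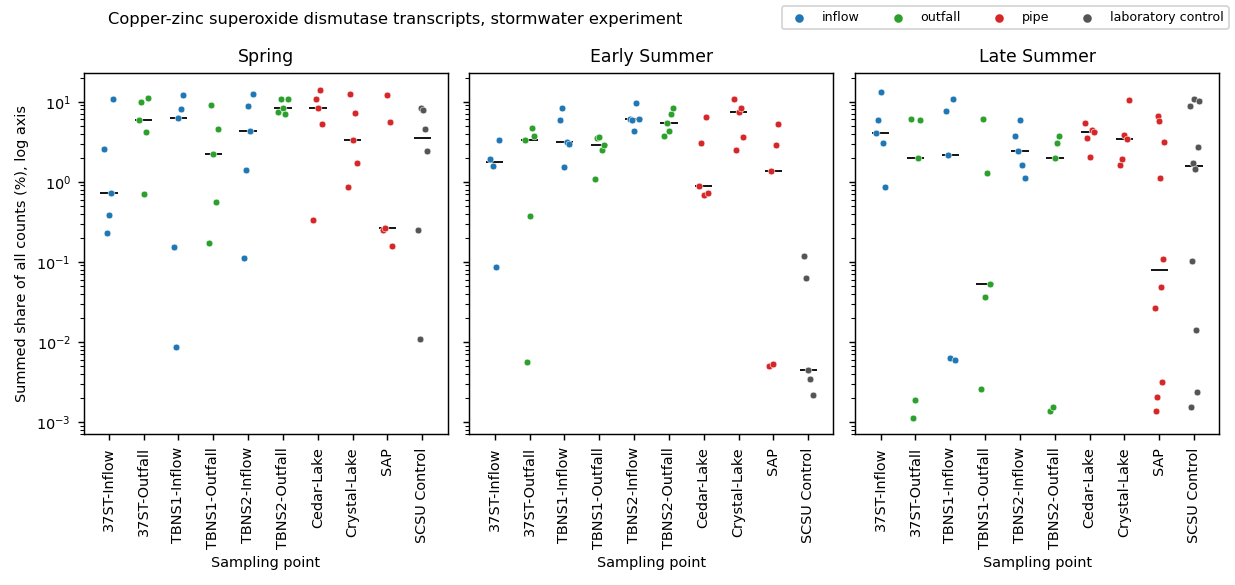
Summed share of all counts (%, log axis) of the 4 transcripts at each sampling point of the stormwater experiment, in 3 panels by season. Points are libraries, coloured by site type, and lines medians. The early summer controls lie at 0.00216% to 0.119%, while spring and late summer controls reach 8.40% and 10.7%.

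In spring and late summer the members in stormwater and controls overlapped widely, and 0 of 4 passed in either season by edgeR or DESeq2, with 0 at an unadjusted p under 0.05. Spring controls held 0.253%, 0.0110%, 8.40%, 7.89%, 4.52% and 2.42% of counts. Spring stormwater ranged from 0.00862% to 14.1% with a median of 5.24%, and late summer stormwater from 0.00112% to 13.3% with a median of 2.09%. Stormwater minus control gave 0.24 to 0.76 on the log2 scale in spring (SE 0.91 to 1.21) and -0.43 to -0.14 in late summer (SE 0.93 to 1.00). Called in either direction were 0.104% of transcripts in spring and 0.0192% in late summer.

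The difference between stormwater and controls was itself tested between seasons. It was larger in early summer than in spring for 3 of 4 members, by log2 values of 6.69 (SE 1.90), 7.12 (SE 2.03) and 6.67 (SE 1.88) for Dapma7bEVm009708t1, Dapma7bEVm012028t1 and Dapma7bEVm024402t1, with edgeR adjusted p of 0.0278, 0.0280 and 0.0268 and 3.38% of all transcripts called in that direction. For Dapma7bEVm002960t1 the value was 5.02 (SE 1.87, edgeR adjusted p = 0.0813). From early to late summer the difference fell by 8.20 (SE 2.10) for Dapma7bEVm012028t1 and by 7.61 (SE 1.93) for Dapma7bEVm024402t1, both at an edgeR adjusted p of 0.0491, where 0.118% of transcripts were called lower. Without the second late summer set, 0 of 4 passed in that last comparison.

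Controls were also compared between seasons. Early summer against spring controls gave log2 differences of -7.21 (SE 1.84), -7.79 (SE 1.91), -5.23 (SE 1.85) and -7.24 (SE 1.96) for Dapma7bEVm009708t1, Dapma7bEVm012028t1, Dapma7bEVm002960t1 and Dapma7bEVm024402t1. By edgeR 0 of 4 passed (adjusted p from 0.449 to 0.473), all 4 had an unadjusted p under 0.05, and DESeq2 called all 4. Over all transcripts edgeR called 0% here, with 2394 (9.57%) at an unadjusted p under 0.05 and 223 (0.891%) called by DESeq2. Late against early summer controls gave 5.09 to 7.76, again with 0 of 4 passing by edgeR, all 4 at an unadjusted p under 0.05 and all 4 called by DESeq2. Of all transcripts, 0.359% were called by edgeR, 11.7% had an unadjusted p under 0.05 and 2.14% were called by DESeq2. Late summer against spring controls gave -0.17 to -0.06, with 0 of 4 by edgeR or DESeq2 and at an unadjusted p under 0.05 (1.25% called). In 5 of 6 spring controls the summed share was above every early summer control.

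Stormwater itself was compared between seasons. Late summer against spring gave log2 differences of -1.04 (SE 0.50), -1.13 (SE 0.52), -0.62 (SE 0.55) and -1.08 (SE 0.49) in the same order of members, and 0 of 4 passed by edgeR, with 3 at an unadjusted p under 0.05, where 15.5% of all transcripts were called lower and 39.3% had an unadjusted p under 0.05. DESeq2 called 3, with 31.1% of all transcripts called. So did edgeR on counts summed per water sample, at edgeR adjusted p of 0.0328 to 0.0349, with 20.3% called. That last fit also held the sampling point as a term, with the second SAP set as a sum of its own. The effects of summing and of that term cannot be told apart. Libraries under 0.1% numbered 1 of 45 in spring, 4 of 44 in early summer and 14 of 50 in late summer. Early summer against spring gave -0.66 to -0.20 on the log2 scale and late against early summer -0.53 to -0.43, with 0 members passing by edgeR or DESeq2 and 0 at an unadjusted p under 0.05, where 35.3% and 44.4% of all transcripts were called.

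Site type showed no detectable difference for the members. Median summed shares were 3.25% in 44 inflow, 3.60% in 45 outfall and 3.10% in 50 pipe libraries. Outfall minus inflow gave -0.17 (SE 0.47) for Dapma7bEVm009708t1, with a 95% interval of -1.09 to 0.76 on the log2 scale. Of the 4 members 0 passed by edgeR or DESeq2 in outfall or pipe against inflow, and 0 had an unadjusted p under 0.05. Called in either direction were 0.18% and 1.51% of transcripts.

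Single waters still spread widely. At the 37ST filter in spring the 5 inflow pools held 2.57%, 0.231%, 0.379%, 0.722% and 10.8% and the 5 outfall pools 5.95%, 9.94%, 0.709%, 4.15% and 11.2%. Pipe SAP held 0.00501%, 1.37%, 0.00530%, 2.89% and 5.20% in early summer, and in late summer 0.0264%, 0.00139%, 0.00205%, 6.57% and 5.70% in the first set. The second SAP set held 1.12%, 0.0491%, 0.00312%, 0.107% and 3.12%. Both SAP sets overlapped.

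**Figure D4:**
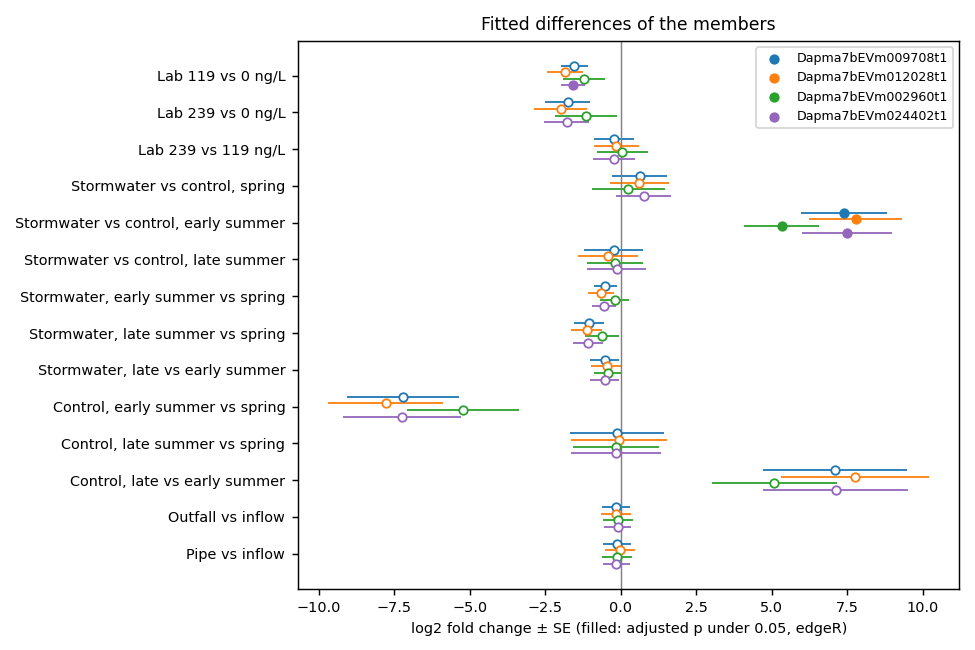
Fitted log2 fold change ± SE of each member in 14 comparisons of laboratory water and stormwater. Filled points passed an edgeR adjusted p under 0.05. Stormwater against control in early summer has all 4 members filled, at 5.33 to 7.78, and laboratory water at the lower dose has Dapma7bEVm024402t1 filled, at -1.58.

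Unspiked laboratory water of the wetland experiment and the 21 stormwater controls differed by log2 values of 0.35 (SE 1.41) to 1.30 (SE 1.41), with 0 of 4 members passing by edgeR or DESeq2 and 0 at an unadjusted p under 0.05, against 14.5% of all transcripts called. These libraries belong to separate experiments, so water and experiment cannot be told apart. The study names different genetic backgrounds of animals for the experiments, which cannot be told apart from them either.

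Among themselves, 3 members moved together. Over 160 stormwater-experiment libraries, log2(CPM + 1) of Dapma7bEVm009708t1 correlated with Dapma7bEVm012028t1 at Pearson's r = 0.997 and with Dapma7bEVm024402t1 at r = 0.995, and with Dapma7bEVm002960t1 at r = 0.877. The estimated counts of Dapma7bEVm002960t1 were whole numbers (within 1e-06) in every library, while of the values above 0, 39.7% of Dapma7bEVm009708t1, 54.1% of Dapma7bEVm012028t1 and 93.9% of Dapma7bEVm024402t1 were not whole. Kallisto splits a read that matches more than 1 transcript, so the separate values of these 3 and the correlations between them are uncertain.

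Dapma7bEVm002960t1 left the others in a separate set of libraries. Of 187 libraries with a summed share of 0.1% or more, 13 had a ratio of Dapma7bEVm002960t1 to Dapma7bEVm009708t1 under 0.01 (highest 0.00672), and the next library was at 0.0413, against a median of 0.237. In these 13, Dapma7bEVm002960t1 was at 3.09 to 8.76 CPM while Dapma7bEVm009708t1 was at 724 to 11379 CPM. Of the 13, 11 were spring stormwater, of 44 spring stormwater libraries with that share, and 2 were unspiked wetland water (Douglas replicate 5 and Kerk replicate 3). None was a control, a laboratory water library or a stormwater library of early or late summer. The summed share in the 13 was 0.110% to 1.73%, and few libraries outside spring stormwater lay in that range. Between 0.1% and 1% there were 13 spring, 4 early summer and 2 late summer stormwater libraries, and 3 controls. Laboratory water had 0 unspiked, 1 lower-dose and 2 higher-dose libraries there, and wetland water 2 unspiked and 4 spiked. The ratio limit was set after the values were seen, and no test was made. Vitellogenin in these 13 was at 23.8 to 82.0 CPM.

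Vitellogenin-1 precursor (Dapma7bEVm000343t1) followed the members. Its correlation with Dapma7bEVm009708t1 was r = 0.899 over the 160 stormwater-experiment libraries and r = 0.810 over 69 wetland-experiment libraries, where pools of both doses and the contrast that chose the members enter. Within groups the values were r = 0.893 and r = 0.615. In 27 libraries with a summed share under 0.01% it was at a median of 12.3 CPM (3.57 to 35.3), in 85 libraries with 1% to 5% at 153.8 CPM, and in 71 libraries with 5% or more at 548 CPM (229 to 1162). In the same wetland contrast that chose the members its log2 difference was -3.70 (SE 0.37). In laboratory water at the lower dose its difference was -1.43 (SE 0.73). Vitellogenin was named from the study's list of differentially expressed transcripts on these libraries, so its values are a description without a test. Its part in the members' results was not tested.

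**Figure D5:**
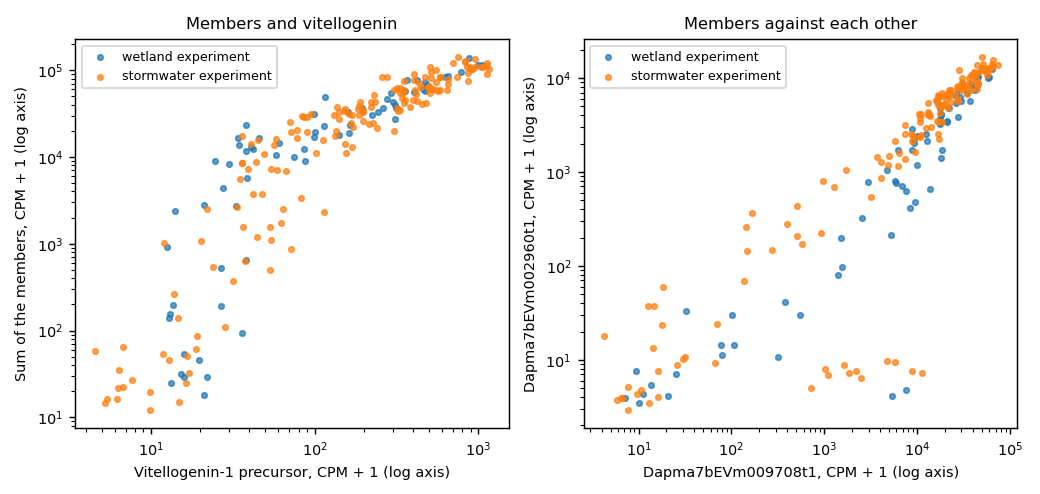
Left, sum of the members against vitellogenin-1 precursor, and right, Dapma7bEVm002960t1 against Dapma7bEVm009708t1, in CPM + 1 on log axes, 1 point per library, coloured by experiment. On the right 13 points lie low, with Dapma7bEVm002960t1 at 3.09 to 8.76 CPM while Dapma7bEVm009708t1 reaches 11379 CPM.

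The patterns most like the members, by Pearson's r of log2(CPM + 1) over 160 stormwater-experiment libraries among 16357 transcripts, were mostly unnamed. After the other members, Dapma7bEVm009708t1 was nearest to the uncharacterized Dapma7bEVm020225t1 (r = 0.969), Dapma7bEVm000101t1 (r = 0.956) and Dapma7bEVm030424t1 (r = 0.954), and the same 3 were nearest to Dapma7bEVm012028t1 and Dapma7bEVm024402t1. Dapma7bEVm002960t1 was nearest to Dapma7bEVm000101t1 (r = 0.922), to Dapma7bEVm002582t1, named as a JmjC domain histone demethylase (r = 0.917), and to Dapma7bEVm010368t1 (r = 0.914), Dapma7bEVm026507t1 (r = 0.906) and Dapma7bEVm020794t1 (r = 0.904). Vitellogenin-1 precursor came at rank 6 for Dapma7bEVm009708t1, Dapma7bEVm012028t1 and Dapma7bEVm024402t1, and at rank 13 for Dapma7bEVm002960t1.

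The other 4 transcripts named as copper-zinc superoxide dismutases came from the study's list of differentially expressed transcripts on these libraries, so their values are a description without a test. In laboratory water at the lower dose, Dapma7bEVm007114t1 had a log2 difference of -4.59 (SE 0.44) and Dapma7bEVm002040t1 of -2.21 (SE 0.37), while that of Dapma7bEVm005378t1 was 2.39 (SE 0.43) and that of Dapma7bEVm028228t1 was 2.83 (SE 0.49). At the higher dose, against the same unspiked libraries, these were -2.67 (SE 0.89), -0.34 (SE 1.00), 1.78 (SE 0.56) and 1.77 (SE 0.78), in that order. In wetland water their log2 differences at the lower dose ran from -0.15 to 0.41. In early summer stormwater against controls they ran from -2.08 for Dapma7bEVm005378t1 to 0.93. The correlation of Dapma7bEVm005378t1 with Dapma7bEVm009708t1 was r = -0.550 over 160 stormwater-experiment libraries and r = -0.123 over 69 wetland-experiment libraries. Over the same 160 libraries it was r = 0.090 for Dapma7bEVm007114t1, r = 0.067 for Dapma7bEVm002040t1 and r = 0.159 for Dapma7bEVm028228t1.

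Other genes of oxygen and peroxide handling came from lists that the study chose on these libraries. Their counts and directions are therefore no independent evidence. Of all transcripts, 6.21% were called lower and 3.86% higher at the lower dose, and 13.2% lower and 14.2% higher in early summer stormwater. The lists are not a random draw from these transcripts, so a count above such a share is no result about the list. Of 14 chorion peroxidases, enzymes known from insects to harden the eggshell, 10 fell and 3 rose in laboratory water at the lower dose (median log2 -3.79, against 0.01 over all transcripts), and 2 fell and 1 rose in early summer stormwater against controls. Of 6 transcripts named as double, dual or NADPH oxidases or their maturation factor, a family that makes superoxide or hydrogen peroxide, 4 fell and 1 rose at the lower dose, and their log2 differences in early summer stormwater ran from -1.93 to 1.42. Of 11 globins, the family of the hemolymph's oxygen carriers, 1 rose and 1 fell at the lower dose, and 6 rose in early summer stormwater.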

How the data were processed

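The authors trimmed strand-specific reads with Trimmomatic, quantified reference transcripts of *D. magna* using Kallisto, and deposited estimated counts with no normalization between libraries (tool versions are not given in the sources used here). Estimated counts were rounded to whole numbers, and 2871 of 29127 transcripts without variance in one or both experiments were left out. CPM used library totals. Comparisons used edgeR 4.0.16 (TMM, quasi-likelihood test, Benjamini-Hochberg) in R 4.3.3, each fit holding only the groups compared, with all 3 seasons in the fit that compared stormwater differences between seasons, and passing means an adjusted p under 0.05. SE is the log2 difference divided by the square root of the F statistic, and 95% intervals are normal intervals from it. DESeq2 1.42.0, other scalings, filters, blocks and left-out libraries were alternatives. The fit was tested on simulated data with 200 changed transcripts. Each simulation used 1 common spread for all transcripts, so it does not cover transcripts that vary between pools as widely as the members. Members and lists were chosen with earlier results of these data known. Named genes were the 4 members, vitellogenin, the other superoxide dismutases and, for each member, the 5 transcripts most like it, while other lists are given as counts. In 449 pairs of replicate libraries no pair agreed within sampling noise (lowest chi-square per degree of freedom 15.4). Library totals set a floor of 3 counts at 0.20 to 0.60 CPM, which covers counting error only.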

Additional observations from a re-analysis of the deposited data

Results flagged for a closer look

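One pool stood apart from its group: Cedar-Lake spring replicate 1 had a summed share of 0.3355%, while the other 4 pools held 5.24% to 14.1%. Of 45 groups of 4 to 6 libraries examined, 1 was found, and chance gives about 1 in 20. In the same pool Dapma7bEVm002960t1 was at 6.55 CPM.

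Stormwater minus control differed between early summer and spring, by log2 values of 6.688 for Dapma7bEVm009708t1, 7.118 for Dapma7bEVm012028t1 and 6.667 for Dapma7bEVm024402t1, each tested as a difference of differences in edgeR. The same test between late and early summer gave -8.197 for Dapma7bEVm012028t1 and -7.608 for Dapma7bEVm024402t1, and 0 of 4 members passed it without the second late summer set.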

How the results depend on the processing

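Of 810 values recomputed under alternatives, 9 summary results gained calls, 7 lost calls and 1 median changed sign, while 25 single-member values gained a call, 10 lost it and 29 changed sign. For summary results, a small change between counts above 0, such as from 3 to 4 members passing, was not counted as gained or lost. In laboratory water at the lower dose, 2 members passed with a filter on low counts and 3 by DESeq2, and leaving out 1 replicate gave 0 to 2. Late summer against spring stormwater gave 3 by DESeq2 and 3 on sums per water sample with the sampling point as a term. By DESeq2, 4 members passed between early summer and spring controls, between late and early summer controls, and in the change of the stormwater difference from early to late summer, where 0 passed without the second late summer set. Unspiked wetland minus laboratory water had a median log2 difference of -0.52 to 0.19 with 1 laboratory replicate left out. In the order Dapma7bEVm009708t1, Dapma7bEVm012028t1, Dapma7bEVm002960t1 and Dapma7bEVm024402t1, that range was -0.55 to 0.10, -0.63 to 0.27, -0.38 to 0.56 and -0.48 to 0.069, and for higher minus lower dose -0.94 to 0.059, -1.12 to 0.22, -0.84 to 0.36 and -1.03 to 0.065. For unspiked laboratory water against stormwater controls it was -0.34 to 0.64 for Dapma7bEVm002960t1. Without the second late summer set, late summer minus spring controls gave 0.13, 0.23, 0.036 and 0.15, and pipe minus inflow 0.10 for Dapma7bEVm012028t1. The cause of these changes was not tested.

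Replicate numbers did not pair the libraries: the median correlation of deviations between same-numbered libraries was -0.03 for wetland-experiment libraries and 0.03 for those of stormwater. With the replicate number as a block, 0 members passed in the change of the stormwater difference from spring to early summer (edgeR adjusted p from 0.0666 to 0.133), late summer stormwater minus controls gave 0.28, 0.15, 0.32 and 0.28 in the same order, and Dapma7bEVm002960t1 gave -0.82 for higher minus lower dose and 0.0030 for unspiked wetland minus laboratory water. From early to late summer 3 members passed with the block, against 2 without, and in the remaining tested comparisons the count was unchanged. The block also moved differences that did not pass: unspiked laboratory water minus stormwater controls to 4.04, 4.18, 1.99 and 4.22, late minus early summer controls to 4.29, 4.74, 3.85 and 4.42, and late summer minus spring controls to -1.53, -1.56, -1.03 and -1.69. Depth limits values near the floor of 3 counts, which 1 early summer control reached for Dapma7bEVm024402t1, listed at 0.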

Other observations

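The library with conflicting labels, of 37ST inflow water, held 3.10% of its counts in the 4 transcripts, with Dapma7bEVm009708t1 at 17824 CPM, Dapma7bEVm002960t1 at 3274 CPM and vitellogenin at 90.9 CPM. It entered no group.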
